A study of Mus musculus with 50 samples.

Results

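EZH1 and EZH2 are the alternative catalytic subunits of Polycomb repressive complex 2 (PRC2), which methylates lysine 27 of histone H3, and SUZ12 is a core subunit that both forms of the complex share. In mouse ESCs, PRC2 sits mainly on CpG-rich promoters of silent developmental genes, where H3K27me3 is found, whereas H3K27ac is found on the same lysine at active promoters and enhancers. To map EZH1 itself, human EZH1 carrying a Flag-HA tag was put into *Ezh1/2* dKO ESCs by transient transfection, and the tag was precipitated with an HA antibody. The peaks described here are the HA-EZH1 peaks away from both references. They were chosen by position alone and overlap, even by 1 bp, neither an HA peak of *Ezh1/2* dKO ESCs without the tagged protein (the control) nor a SUZ12 peak of WT ESCs. These were 729 of the 4429 HA-EZH1 peaks (16.5%). Another 2994 HA-EZH1 peaks (67.6%) lay on a WT SUZ12 peak and on no control peak, 706 (15.9%) were shared with the control, and 587 of the 1291 control peaks had no HA-EZH1 peak. Peaks shared with the control and control peaks alone were not sorted by WT SUZ12, so some of them may lie on such a peak.

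The lines were the wild-type ESC line E14 (WT), *Ezh2* KO, *Ezh1/2* dKO with macrodeletions of both genes, and *Ezh2* Y726D and *Ezh2* R685C, point mutants of EZH2 made in *Ezh1* KO cells. The rescue line that gave the HA-EZH1 peaks was *Ezh1/2* dKO with the human EZH1 vector, and the control was *Ezh1/2* dKO alone. Peak lists of SUZ12 and H3K27me3 were used for the 5 lines, of H3K27ac for the 4 mutant lines, and ATAC-seq and RNA-seq data for all lines but *Ezh2* R685C. There was 1 library per line and target, so no difference between lines or between classes of peaks was tested for the lists, and peaks of 1 library are not replicates. RNA-seq had 2 libraries per line with 3604123 to 5181553 reads, whereas the reads behind each peak list are not known.

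In RNA-seq, *Ezh2* had 1.05 and 0.968 normalized counts (reads divided by a size factor of the library) in *Ezh2* KO and 0.824 and 1.78 in *Ezh1/2* dKO, against 598 and 546 in WT. The summed normalized counts of 10 ESC markers were 13036 to 16731 over the 8 libraries, and none of these markers was at 0 throughout. Marker sums of fibroblasts (5 genes) were 4.81 to 16.7 in WT and *Ezh2* KO and 86.1 to 116 in *Ezh1/2* dKO and *Ezh2* Y726D. The sums of primitive endoderm (6 genes) were 10.5 to 35.6 and 55.9 to 170, respectively. The sums of trophectoderm (4 genes) were 201 and 193 in WT, 315 and 378 in *Ezh2* KO, 487 and 642 in *Ezh1/2* dKO and 487 and 935 in *Ezh2* Y726D, so that each mutant library was above WT. Those of mesoderm and primitive streak (4 genes) were 42.9 to 74.7 in WT and *Ezh2* KO and 85.7 to 276 in the other lines, and those of neural markers (3 genes) overlapped between lines (479 to 1255). None of these markers was at 0 in every library, and their part in the results was not tested.

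The sequences below come from the mm9 genome, plus strand, and show stretches from 3 groups of peaks. The first 4 are stretches of peaks next to the start of genes that are highly expressed in WT ESCs, taken around the middle of the peak and outside annotated untranslated exons, with CpG dinucleotides in capitals. They lie at chr9:108838519-108838660 (*Uqcrc1*), chr2:152169187-152169386 (*Trib3*), chr7:52391803-52391938 (*Rpl13a*) and chr15:102181224-102181423 (*Aaas*).
Uqcrc1: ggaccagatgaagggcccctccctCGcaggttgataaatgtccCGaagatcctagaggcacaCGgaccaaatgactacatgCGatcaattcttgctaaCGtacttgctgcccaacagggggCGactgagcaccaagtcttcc
Trib3: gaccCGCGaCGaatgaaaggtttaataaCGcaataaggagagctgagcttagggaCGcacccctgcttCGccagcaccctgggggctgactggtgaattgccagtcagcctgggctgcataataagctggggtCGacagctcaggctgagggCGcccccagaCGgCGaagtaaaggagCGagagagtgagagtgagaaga
Rpl13a: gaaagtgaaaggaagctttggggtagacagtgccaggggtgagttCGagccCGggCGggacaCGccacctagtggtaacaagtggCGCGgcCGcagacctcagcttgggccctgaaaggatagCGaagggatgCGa
Aaas: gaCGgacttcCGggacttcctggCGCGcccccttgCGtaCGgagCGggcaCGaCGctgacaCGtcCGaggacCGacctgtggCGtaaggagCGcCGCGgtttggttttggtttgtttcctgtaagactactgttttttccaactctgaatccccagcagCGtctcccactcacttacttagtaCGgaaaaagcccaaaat

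The next 4 come from the widest of these peaks over 5 kb from any transcription start site (TSS), outside *Ezh1*, again with CpG in capitals. They are not typical of the 352 peaks that far from a TSS: each carried H3K27me3 in 2 or 3 lines, as did few of the others (23 of the 352, or 6.53%, had it in at least 1 line), and each has 11 to 13 CpG in 200 bases. They lie at chr13:73406012-73406211 (in coding sequence, nearest start *Irx4*), chr11:74336811-74337010 and chr11:74335527-74335726 (both in an intron of a gene, nearest start *Rap1gap2*) and chr5:144054541-144054740 (nearest start *E130309D02Rik*).
Irx4: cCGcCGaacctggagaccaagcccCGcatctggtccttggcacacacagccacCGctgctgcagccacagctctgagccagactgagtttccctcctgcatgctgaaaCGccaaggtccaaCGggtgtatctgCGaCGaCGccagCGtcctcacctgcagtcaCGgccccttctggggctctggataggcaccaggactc
Rap1gap2, first: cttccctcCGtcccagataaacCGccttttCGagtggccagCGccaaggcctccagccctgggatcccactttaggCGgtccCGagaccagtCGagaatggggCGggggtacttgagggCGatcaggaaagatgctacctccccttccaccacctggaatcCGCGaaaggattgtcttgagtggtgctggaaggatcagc
Rap1gap2, second: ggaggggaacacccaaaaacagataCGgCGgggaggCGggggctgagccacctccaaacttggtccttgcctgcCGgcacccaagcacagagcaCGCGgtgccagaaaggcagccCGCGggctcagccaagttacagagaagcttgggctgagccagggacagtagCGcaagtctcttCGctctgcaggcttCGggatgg
E130309D02Rik: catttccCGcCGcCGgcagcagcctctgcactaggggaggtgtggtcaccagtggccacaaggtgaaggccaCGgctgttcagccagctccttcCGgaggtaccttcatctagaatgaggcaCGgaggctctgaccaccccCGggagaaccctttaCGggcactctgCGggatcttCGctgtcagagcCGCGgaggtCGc

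The last 2 come from peaks inside the *Ezh1* gene and were chosen after the peaks there had been seen. They lie at chr11:101068548-101068847 and chr11:101071800-101072099, and here the capitals mark annotated coding bases, 92 of the 300 in the first and 177 of the 300 in the second.
Ezh1, peak 10: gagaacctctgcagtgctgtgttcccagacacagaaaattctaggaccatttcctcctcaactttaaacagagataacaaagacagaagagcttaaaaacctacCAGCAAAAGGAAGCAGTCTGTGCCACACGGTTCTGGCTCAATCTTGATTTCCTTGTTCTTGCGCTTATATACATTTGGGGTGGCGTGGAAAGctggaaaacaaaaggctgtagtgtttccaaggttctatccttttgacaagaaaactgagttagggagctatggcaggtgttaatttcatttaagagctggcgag
Ezh1, peak 13: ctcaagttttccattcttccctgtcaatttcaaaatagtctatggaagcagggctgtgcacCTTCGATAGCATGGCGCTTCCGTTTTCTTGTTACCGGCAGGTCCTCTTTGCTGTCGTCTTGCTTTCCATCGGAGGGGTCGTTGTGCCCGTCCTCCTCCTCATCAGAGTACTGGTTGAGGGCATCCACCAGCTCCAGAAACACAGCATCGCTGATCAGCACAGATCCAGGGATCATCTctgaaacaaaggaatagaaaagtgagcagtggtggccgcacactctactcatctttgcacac

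In the last pair, the coding exon stands in the middle of the stretch, and this held along the whole gene. *Ezh1* (chr11:101052429-101087777, 35349 bp) contained 16 of the 729 peaks. Among groups of peaks at most 50 kb apart, the one that includes these 16 had 17 peaks, and the next largest had 3. Each of the 16 peaks overlapped a coding exon. Coding exons make up 6.58% of the gene, and 17 of the 20 merged coding exons carried a peak. The middle of a peak was a median of 2 bp, and at most 121 bp, from the middle of the nearest coding exon. No other HA-EZH1 peak and no control HA peak fell in *Ezh1*, and no HA-EZH1 peak fell in *Ezh2*.

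The line that gave these peaks carries the *Ezh1* deletion and received a vector that codes for human EZH1. In the *Ezh1/2* dKO RNA-seq libraries, made without the vector, *Ezh1* had 14.01 and 20.4 normalized counts against 227 and 377 in WT. Peaks over *Ezh1* coding exons were also present in other lists. The H3K27me3 list of *Ezh2* R685C had 12 there, and the H3K27ac lists of *Ezh1/2* dKO and of *Ezh2* Y726D had 5 each, every one over a coding exon. The H3K27me3 lists of the other 4 lines, the H3K27ac lists of *Ezh2* KO and *Ezh2* R685C and the 5 SUZ12 lists had none. ATAC regions were present on 8 of the 16 peaks in WT, and 6 of the 16 lay in the strongest 5% of the ATAC regions in each of the 4 lines with such data, WT included. Whether sequence of a vector contributed reads to any of these peaks was not tested. Values without the 16 peaks rest on the other 713.

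**Figure D1:**
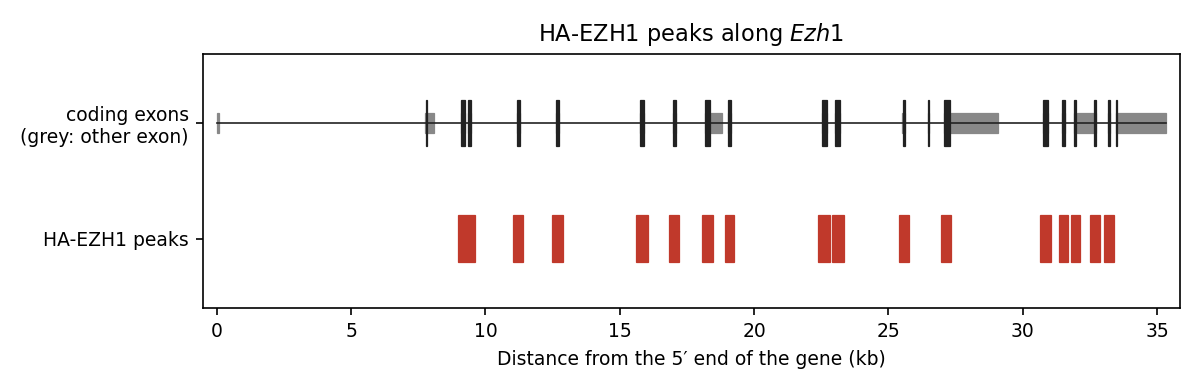
HA-EZH1 peaks of the rescue line along *Ezh1*, by distance in kb from the 5′ end of the gene. Black boxes are annotated coding exons, grey boxes are other exon sequence, and red boxes are the 16 HA-EZH1 peaks, each of which stands over a coding exon.

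The 729 peaks were narrow. Their width had a median of 267 bp (200 to 1172 bp), against 902 bp for the HA-EZH1 peaks on WT SUZ12 and 362 bp for those shared with the control. As the rule used positions only, the values nearest to its limits are given as a description. The 3 peaks nearest to a WT SUZ12 peak were 16, 29 and 50 bp from it, and the smallest overlaps among the peaks left out were 9, 29 and 55 bp. The 3 peaks nearest to a control peak were 88, 177 and 226 bp from it, and the smallest overlaps among those left out were 94, 102 and 123 bp. The name "away from WT SUZ12" covers a range of distances. The median distance to a WT SUZ12 peak was 77569 bp, yet 78 peaks (10.7%) lay within 1 kb of one and 118 (16.2%) within 5 kb.

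The peaks were spread over chromosomes 1 to 19 and X. They formed 24.8% of the HA-EZH1 peaks of chromosome 9 (59 of 238, 95% confidence interval, CI, 19.7 to 30.6) and 21.9% of chromosome 5 (75 of 343, CI 17.8 to 26.5), but 1 of 53 on chromosome X (1.89%, CI 0.334 to 9.94). Without *Ezh1*, chromosome 11 kept 28 of its 44 peaks. The CIs are Wilson intervals, here and below, and cover counting error only.

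Fewer of these peaks were promoter peaks than among those on WT SUZ12. PRC2 sits mainly on CpG-rich promoters, so this contrast follows in part from how the peaks were chosen. An annotated TSS lay within 5 kb of 377 of the 729 peaks (51.7%, CI 48.1 to 55.3) and within 1 kb of 223 (30.6%, CI 27.4 to 34.0), and 84 (11.5%) covered a TSS. For the HA-EZH1 peaks on WT SUZ12, 89.1% (CI 87.9 to 90.1) were within 5 kb and 42.3% covered a TSS. Among the peaks shared with the control, 52.7% (CI 49.0 to 56.3) were within 5 kb and 20.3% covered a TSS. Control peaks alone gave 47.7% (CI 43.7 to 51.7) and 11.8%. Without the 16 peaks in *Ezh1*, 50.8% lay within 5 kb of a TSS.

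By annotation, 227 of the 729 peaks (31.1%) touched an exon, 217 (29.8%) lay in an intron and 285 (39.1%) between genes. The peaks on WT SUZ12 touched an exon in 72.4% of cases, and those shared with the control in 36.1%. Peaks over 50 kb from any TSS were 50 in number, since 679 (93.1%) had a TSS within 50 kb.

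**Figure D2:**
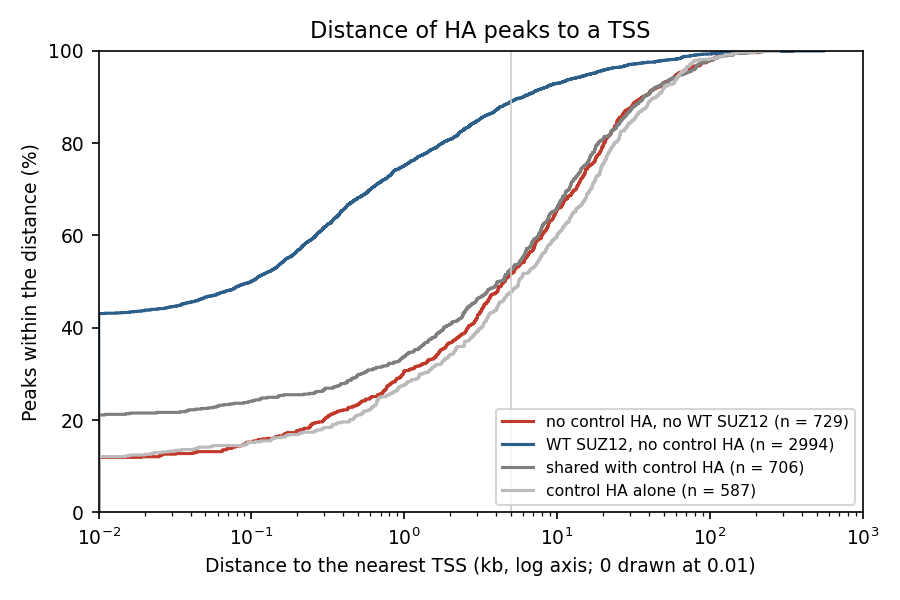
Cumulative share of peaks (%) by distance to the nearest TSS in kb on a log axis, with distance 0 drawn at 0.01 kb and a vertical line at 5 kb. The red curve of the 729 peaks runs under the blue curve of HA-EZH1 peaks on WT SUZ12 (51.7% against 89.1% at 5 kb). It runs close to the curve of control HA peaks alone. Peaks shared with the control are close to it at 5 kb (52.7%) but higher at distance 0 (20.3% against 11.5%).

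Base composition also differed between the classes, with the same limit for the contrast with the peaks on WT SUZ12. The median GC content was 55.1% in the 729 peaks, 61.8% in those on WT SUZ12, 55.9% in those shared with the control and 54.3% in control peaks alone. The number of CpG per 100 bases had medians of 2.50, 6.47, 3.41 and 2.40 in the same order. The ratio of observed to expected CpG was 0.364, 0.696, 0.465 and 0.332. The peaks with a TSS within 1 kb were richer in CpG (median 5.23 per 100 bases, 223 peaks) than those over 5 kb from a TSS (2.03, 352 peaks).

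Short sequence motifs were counted on both strands within 100 bases of the middle of each peak. The GC box GGGCGG, recognised by SP factors, was present in 16.3% of the 729 peaks (CI 13.8 to 19.2), 31.5% (CI 29.8 to 33.1) of those on WT SUZ12 and 20.5% (CI 17.7 to 23.7) of those shared with the control. The E-box CACGTG had shares of 4.39%, 3.74% and 4.67% in the same order. The ETS motif CCGGAAGT was found in 9 peaks (1.23%, CI 0.651 to 2.33), 0.1002% (CI 0.0341 to 0.294) and 1.56% (CI 0.872 to 2.77). The NRF1-type motif TGCGCATG was found in 10 peaks (1.37%, CI 0.747 to 2.51), 0.134% (CI 0.0520 to 0.343) and 0.992% (CI 0.481 to 2.03). Control peaks alone had 14.5%, 4.94%, 1.36% and 0.681% for these motifs, in the order given. All 9 of the 729 peaks with CCGGAAGT carried H3K27ac in at least 1 line and no H3K27me3. The YY1 motif ATGGCGGC (0.686%), the repeat GAGAGAGA (2.06%), the octamer ATTTGCAT (0.549%) and the AP-1 motif TGACTCA (1.92%) occurred in 4 to 15 of the 729 peaks each, and at least 1 CG in 712 (97.7%). On WT SUZ12, the shares of ATGGCGGC, GAGAGAGA, ATTTGCAT and TGACTCA were 0.668%, 2.71%, 0.234% and 1.10%. Peaks shared with the control had 0.850%, 1.84%, 0.283% and 2.12%, and control peaks alone 1.36%, 2.73%, 0.852% and 3.24%. A match is only a match of letters, and overlaps between motifs were not removed.

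H3K27me3 covered few of the peaks, and those mostly near WT SUZ12. In WT, 59 of the 729 peaks (8.09%, CI 6.33 to 10.3) overlapped an H3K27me3 peak. The count was 89 (12.2%, CI 10.03 to 14.8) in *Ezh2* KO and 116 (15.9%, CI 13.4 to 18.7) in *Ezh2* R685C, or 104 of 713 (14.6%) without *Ezh1*. The H3K27me3 lists of these lines held 16754, 8956 and 22245 peaks, and those of *Ezh1/2* dKO and *Ezh2* Y726D 53 and 3862. In the last-named lines the count was 1 peak each, the same one, next to *Mid1* on chromosome X, a gene singled out after its values were seen. It had a −log10 p of 40.8 in the former and 430 in the latter, and this peak was also the only one with SUZ12 in *Ezh1/2* dKO. H3K27me3 of *Ezh1/2* dKO and *Ezh2* Y726D also lay on 10 and 13 of the peaks shared with the control. On control peaks alone it lay on 6 in each line. Its median −log10 p in *Ezh2* Y726D was 282 on the shared peaks and 406 on control peaks alone, and in *Ezh1/2* dKO 23.2 and 32.1. Of the HA-EZH1 peaks on WT SUZ12, 90.0%, 96.6% and 97.4% overlapped H3K27me3 in WT, *Ezh2* KO and *Ezh2* R685C. Of those shared with the control, 8.07%, 9.63% and 13.3% did, and of control peaks alone 1.36%, 2.04% and 4.26%. In all, 126 of the 729 peaks (17.3%) had H3K27me3 in at least 1 line, and 51 (6.996%) in WT, *Ezh2* KO and *Ezh2* R685C alike. H3K27me3 and WT SUZ12 are related marks, so the contrast with the peaks on WT SUZ12 follows in part from how the peaks were chosen. The 729 peaks exclude WT SUZ12 by rule, whereas the classes of control peaks do not, so their shares are not fully alike in kind.

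Among the 118 peaks within 5 kb of a WT SUZ12 peak, H3K27me3 of *Ezh2* KO was present on 73 (61.9%, CI 52.9 to 70.1), whereas it was present on 16 of the 611 others (2.62%, CI 1.62 to 4.21). For WT the shares were 35.6% (CI 27.5 to 44.6) and 2.78% (CI 1.74 to 4.41). For *Ezh2* R685C they were 61.9% (CI 52.9 to 70.1) and 7.04% (CI 5.27 to 9.35), the latter with 12 peaks in *Ezh1*. SUZ12 of a mutant line was likewise found on 37 of the 118 (31.4%, CI 23.7 to 40.2) and 9 of the 611 (1.47%, CI 0.777 to 2.78). By line, SUZ12 lay on 32 of the 729 peaks in *Ezh2* R685C (4.39%), 20 in *Ezh2* Y726D (2.74%), 3 in *Ezh2* KO and 1 in *Ezh1/2* dKO. The SUZ12 lists differ in length (3231, 3366, 1578 and 317 peaks), so these counts are not levels of binding. The strongest ATAC regions of WT, described further on, were on 46.6% (CI 37.9 to 55.6) of the 118 and 60.1% (CI 56.1 to 63.9) of the 611.

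Over 100 kb from WT SUZ12 and outside *Ezh1*, 12 of 312 peaks (3.85%, CI 2.21 to 6.60) still had H3K27me3 in at least 1 line. They include 2 of the 5 widest of all 729 peaks. The first, 775 bp wide (chr1:9289267-9290041), covered a TSS of *Sntg1*, which codes for a syntrophin, at 245579 bp from a WT SUZ12 peak. Its H3K27me3 peaks had a −log10 p of 15.8 in WT, 108 in *Ezh2* KO and 109 in *Ezh2* R685C, and a SUZ12 peak of *Ezh2* R685C (19.7) lay on it. The second, 697 bp wide (chr2:65075760-65076456), lay 75 bp from a TSS of *Cobll1*. It had a −log10 p of 17.9, 106 and 67.4 for H3K27me3 in the same lines and a SUZ12 peak of *Ezh2* Y726D (14.6). The H3K27me3 scores cannot be compared between lists as levels of the mark. On the HA-EZH1 peaks on WT SUZ12 their medians were 21.3 in WT, 213 in *Ezh2* KO and 201 in *Ezh2* R685C. Both peaks printed above under *Rap1gap2* lay in an intron, 66424 bp (chr11:74336619-74337202) and 67711 bp (chr11:74335338-74335915) from the nearest TSS. H3K27me3 of *Ezh2* KO had a −log10 p of 63.5 on the former and 129 on the latter, and that of *Ezh2* R685C 70.9 and 79.5. WT had no H3K27me3 peak on the former and a −log10 p of 10.2 on the latter, close to the cut of 10. Neither *Ezh1/2* dKO nor *Ezh2* Y726D had H3K27me3 there.

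The other 3 of the 5 widest peaks were close to WT SUZ12. Both peaks near *Tfap2c* (chr2:172372548-172373719, 1172 bp, and chr2:172371152-172371906, 755 bp), which codes for the AP-2γ transcription factor, were 467 and 2280 bp from a WT SUZ12 peak. They carried H3K27me3 in WT, *Ezh2* KO and *Ezh2* R685C. The peak on *Mmp9* (chr2:164775627-164776376, 750 bp), a gene for a matrix metalloproteinase, lay 183 bp from WT SUZ12 and carried H3K27me3 in the same 3 lines. The other 3 of the widest peaks over 50 kb from a TSS (chr9:46543651-46544036, chr4:139586382-139586741 and chr9:31367044-31367391, 348 to 386 bp wide) had neither H3K27me3, H3K27ac nor SUZ12 of any line.

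H3K27ac lay on a minority of the peaks. It was found on 124 of the 729 peaks in *Ezh2* R685C (17.0%, CI 14.5 to 19.9), 100 in *Ezh2* Y726D (13.7%, CI 11.4 to 16.4), 71 in *Ezh2* KO (9.74%, CI 7.79 to 12.1) and 56 in the dKO line (7.68%, CI 5.96 to 9.84). The H3K27ac lists held 41185, 40829, 25483 and 17618 peaks in that order, and the shares in the 4 lines had the same order as the list lengths. On the HA-EZH1 peaks on WT SUZ12 the shares were 2.47%, 22.6%, 1.14% and 6.41%, so that *Ezh2* Y726D and the dKO line came first there. On the peaks shared with the control the shares were 24.8%, 21.5%, 16.4% and 9.92%, and on control peaks alone 21.5%, 15.2%, 10.6% and 5.79%. The order of the lines on the 729 peaks was thus the one on the control-shared peaks and not the one on the peaks on WT SUZ12.

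The H3K27ac peaks found there were not weak for their lists. In the same order of lines, their median −log10 p was 24.9, 19.2, 21.8 and 17.0, against 17.0, 15.2, 14.8 and 13.6 for all peaks of the lists. In all, 158 peaks (21.7%) had H3K27ac in at least 1 line and 41 (5.62%) in all 4. Only 17 peaks had both H3K27ac and H3K27me3 in any lines, 6 of them in *Ezh1*. Of the 141 peaks with H3K27ac and no H3K27me3, 75 (53.2%, CI 45.0 to 61.2) had a TSS within 1 kb, against 78 of the 462 peaks with neither mark (16.9%, CI 13.7 to 20.6).

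ATAC-seq measures open chromatin, and its deposited lists hold 752012 to 798241 regions per line down to a −log10 p near 1, so the strongest 20% of the regions of each line were used. This cut is still a low one. It lies at a −log10 p of 1.58 to 1.62, and the regions above it cover 146 to 151 Mb per line. Of the 729 peaks, 422 (57.9%, CI 54.3 to 61.4) lay in such a region in WT, 414 (56.8%) in *Ezh2* Y726D, 400 (54.9%) in *Ezh1/2* dKO and 426 (58.4%) in *Ezh2* KO. On WT SUZ12 the shares were 63.6%, 66.7%, 60.5% and 64.4%, among peaks shared with the control 65.3%, 68.0%, 63.0% and 71.4%, and among control peaks alone 54.5%, 61.7%, 52.6% and 59.97%. Agreement between lines was limited, as 651 of the 729 peaks (89.3%) lay in such a region in at least 1 line and 173 (23.7%) in all 4. The share in all 4 lines was 28.9% on WT SUZ12, 30.9% among peaks shared with the control and 24.2% among control peaks alone. Of the 661 peaks with any ATAC region in WT, the strongest region on a peak had a median percentile of 87.6 in its list. That median was 88.3, 90.0 and 85.5 in the other classes, in the same order. The strongest 20% of regions were found on 59.2% (CI 54.1 to 64.0) of the peaks within 5 kb of a TSS and 56.5% (CI 51.3 to 61.6) of those farther away in WT.

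Most of the peaks, 460 of the 729 (63.1%, CI 59.5 to 66.5), overlapped no H3K27ac, H3K27me3 or mutant-line SUZ12 peak of any line, and 57 (7.82%) were also outside the strongest ATAC regions of the 4 lines. Of the peaks on WT SUZ12, 0.334% overlapped none of these 3, of those shared with the control 58.1%, and of control peaks alone 72.1%.

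**Figure D3:**
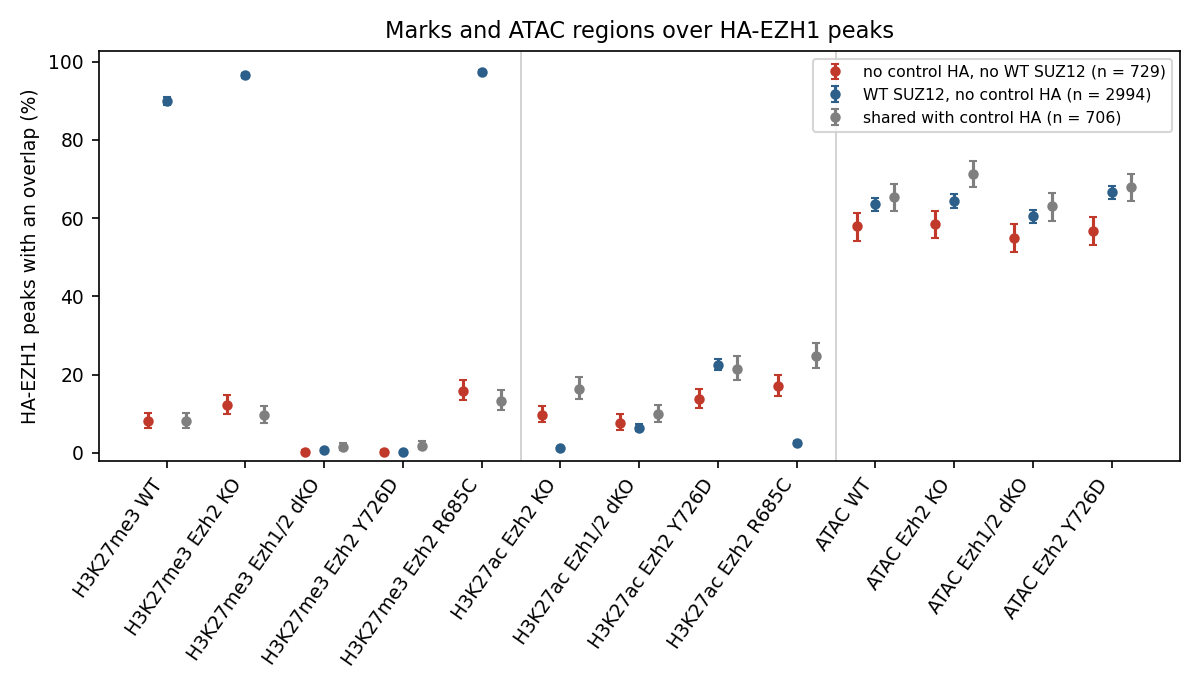
Share of HA-EZH1 peaks (%) that overlap an H3K27me3 peak, an H3K27ac peak or one of the strongest 20% of ATAC regions, by line, with Wilson 95% CIs as bars. The red points (729 peaks) lie far under the blue points of peaks on WT SUZ12 for H3K27me3 in WT, *Ezh2* KO and *Ezh2* R685C and near the grey points of peaks shared with the control.

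H3K27me1 and H3K27me2 could be compared on the 9 and 19 chromosomes that the lists of all 4 lines contain. In WT, broad H3K27me1 regions reached 173 of 389 peaks (44.5%) and 5 of 1503 peaks on WT SUZ12 (0.333%), and covered 14.5% of these chromosomes. H3K27me2 of WT reached 267 of 707 peaks (37.8%) against 24 of 2864 (0.838%). The peaks shared with the control had 42.9% and 35.9%. In *Ezh1/2* dKO the shares of the 389 and 707 peaks were 21.9% for H3K27me1 and 20.5% for H3K27me2, and in *Ezh2* Y726D 47.6% and 29.1%. In *Ezh2* KO, which retains EZH1, they were 20.1% and 25.04%. In the mutant lines the peaks on WT SUZ12 were not low throughout. Their H3K27me1 shares were 61.3% in *Ezh2* Y726D, 27.1% in *Ezh1/2* dKO and 13.9% in *Ezh2* KO, and their H3K27me2 shares 42.7%, 23.2% and 98.6%. The lists of lines that lack the enzymes still cover 10.99% to 24.8% of these chromosomes, so a region in the list is no measure of the amount of the mark.

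To relate the peaks to expression, genes with a TSS within 5 kb of a peak were taken as neighbours. Of the 18055 genes in the RNA-seq table, 367 were neighbours, and 292 of them had the mean normalized count of at least 5 needed for the test. Levels in WT are given per kb of exon, so that genes can be compared. The neighbours had a median of 12.3 normalized counts per kb (11.8 and 13.97 in the 2 libraries, quartiles 1.36 and 78.3), all genes with a length 20.2, genes near HA-EZH1 peaks on WT SUZ12 1.03 and genes near peaks shared with the control 25.3. The neighbours were thus a mixture. The median was 1.70 for the 127 neighbours that also have WT SUZ12 within 5 kb, and 31.2 for the other 240.

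The marks on the peak went with the level of the gene. With the peak within 1 kb of the TSS, the median in WT was 80.6 normalized counts per kb where the peak carried H3K27ac and no H3K27me3 (79 genes, 83.9 and 77.4 in the 2 libraries). It was 20.7 for peaks with neither mark (66 genes, 18.3 and 20.6) and 1.13 for peaks with H3K27me3 and no H3K27ac (54 genes, 0.649 and 1.34). The WT normalized count was under 5 for 3 of the 79, 16 of the 66 and 27 of the 54 genes. The order of the 3 groups was the same in both libraries, and no test was made, since genes are not replicates.

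**Figure D4:**
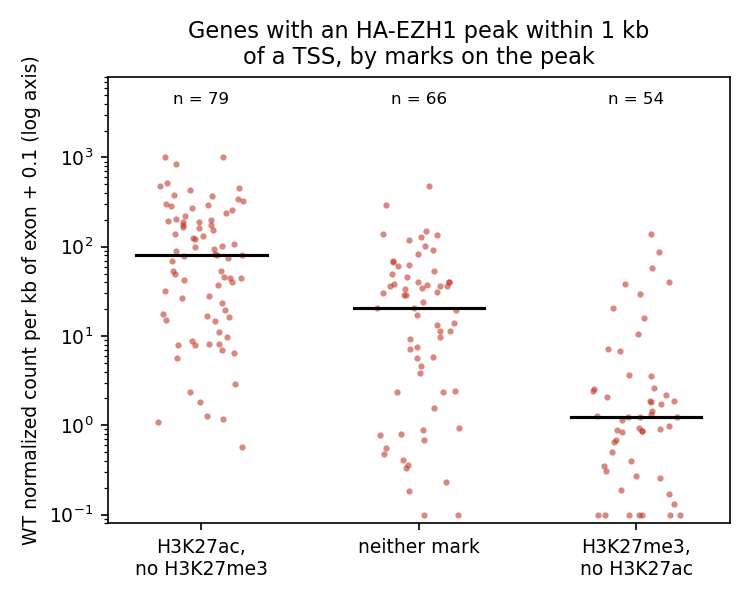
WT normalized count per kb of exon plus 0.1 (mean of 2 libraries, log axis) of each gene with one of the HA-EZH1 peaks within 1 kb of a TSS, by the marks on the peak. Points are genes, black lines are medians, and the median falls from 80.6 with H3K27ac over 20.7 with neither mark to 1.13 with H3K27me3.

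The 10 neighbours with the highest WT level among those with a peak within 1 kb were *Actb*, *Uqcrc1*, *Snrpd1*, *Trib3*, *Rpl13a*, *Aaas*, *Plin3*, *Morc1*, *Polr2j* and *Mrps12*, with 367 to 1025 normalized counts per kb. *Actb* codes for actin, *Uqcrc1* for a subunit of the respiratory chain, *Snrpd1* for a splicing factor, *Rpl13a* and *Mrps12* for ribosomal proteins and *Polr2j* for a subunit of RNA polymerase II. *Morc1* is known from the male germline.

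The peaks of these 10 genes were 218 to 489 bp wide and none carried H3K27me3 or SUZ12. H3K27ac was found in all 4 lines at *Snrpd1* (chr18:10617567-10617879), *Trib3* (chr2:152169169-152169404), *Aaas* (chr15:102181080-102181568), *Plin3* (chr17:56430707-56430940), *Polr2j* (chr5:136592404-136592682) and *Mrps12* (chr7:29527084-29527357). It was found in 3 lines at *Actb* (chr5:143667425-143667642) and *Uqcrc1* (chr9:108838448-108838790), in 2 at *Morc1* (chr16:48431216-48431440) and in none at *Rpl13a* (chr7:52391699-52391979). None of these 10 genes was called in any line. *Actb*, for example, had 3235 and 2257 normalized counts in WT and 2079 and 2178 in *Ezh1/2* dKO, where its log2 fold change was -0.34 with an adjusted p of 0.32 (limma).

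Expression was compared between each mutant line and WT with limma on all 13872 genes with enough counts. A call needed a log2 fold change of 1 or more in size together with a Benjamini-Hochberg adjusted p under 0.1. The 3 comparisons share the WT libraries. The labels do not say whether the 2 libraries of a line came from separate cultures, so the p-values measure the spread between these libraries. In bulk RNA, fewer cells of a type and less RNA per cell cannot be told apart.

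In *Ezh2* KO, which keeps EZH1, 0 of 292 neighbours were called higher (0.0937% of all genes) and 1 lower (0.31% of all genes). At an unadjusted p under 0.05, 29 of the 292 differed in either direction, as did 1225 of all 13872 genes tested. DESeq2 called 1 neighbour higher and edgeR 0. The median log2 fold change of the neighbours was 0.00 and that of all genes -0.01. The called gene was *Cobll1*, whose TSS carries one of the widest peaks and H3K27me3 in WT, *Ezh2* KO and *Ezh2* R685C. It had 14.7 and 12.5 normalized counts in WT, no read in either *Ezh2* KO library, 15.7 and 16.9 in *Ezh1/2* dKO, and 12.5 and 6.71 in *Ezh2* Y726D. Both *Ezh2* KO libraries were thus under all 6 others. With a floor of 3 reads per library this is at least 4.502-fold lower (limma adjusted p = 0.035). The call rested on few reads, and it was lost without either *Ezh2* KO library (adjusted p 0.17 and 0.22), the first WT library (0.19) or either *Ezh1/2* dKO library (0.13 and 0.14).

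In *Ezh1/2* dKO, where neither enzyme is left, 7 of 292 neighbours were called higher (2.40%, with 3.63% of all genes) and 3 lower (1.03%, with 0.389% of all genes), 1 of the latter being *Ezh1* itself. The median log2 fold change of the neighbours was 0.09 and that of all genes 0.01. Of the 82 tested neighbours with a WT SUZ12 peak, 4 were higher (4.88%), and of the 210 without one, 3 (1.43%). Near HA-EZH1 peaks on WT SUZ12, 137 of 931 genes were higher (14.7%). The median log2 fold changes of these 3 groups were 0.63, 0.01 and 0.89. The count of 7 depended on single libraries. It was 0 without either *Ezh1/2* dKO library, 3 without the second WT library and 15 without either *Ezh2* Y726D library, and that of 3 lower was 1 without either *Ezh1/2* dKO library.

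*Ezh1* was the neighbour with the most peaks (15 of the 16 within 5 kb of a TSS) and its log2 fold change was -4.03 ± 0.35 (SE) in *Ezh1/2* dKO (limma adjusted p = 0.0027) and -3.84 ± 0.35 in *Ezh2* Y726D (0.0023). Both lines carry the *Ezh1* deletion, and *Ezh2* KO, which does not, had 372 and 378 normalized counts. These are the 2 named calls that held under each of their 16 alternatives.

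The neighbours with the largest rise in *Ezh1/2* dKO were *Dmrt3*, *Defb42*, *Gata4* and *Islr2*. *Gata4*, a transcription factor of the endoderm and heart, had 2.67 and 4.81 normalized counts in WT, 3.14 and 5.81 in *Ezh2* KO, 22.3 and 20.4 in *Ezh1/2* dKO and 14.3 and 15.7 in *Ezh2* Y726D. Both libraries of *Ezh1/2* dKO and of *Ezh2* Y726D were above all WT and *Ezh2* KO libraries. The log2 fold change in *Ezh1/2* dKO was 2.27 ± 0.55 (SE, limma adjusted p = 0.067), and the call was lost without either *Ezh1/2* dKO library (0.37 and 0.38) or the first WT library (0.16). Its peak (chr14:63888444-63888682) was 206 bp from WT SUZ12 and carried H3K27me3 in 2 lines. *Gata4* is also one of the primitive endoderm markers whose sum is higher in this line.

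*Islr2*, which codes for a membrane protein of neurons, had 64.03 and 31.8 normalized counts in WT, 61.7 and 161 in *Ezh2* KO, 204 and 236 in *Ezh1/2* dKO and 199 and 247 in *Ezh2* Y726D. The *Ezh1/2* dKO and *Ezh2* Y726D libraries lay above all others. The log2 fold changes were 2.25 ± 0.45 (limma adjusted p = 0.039) and 2.27 ± 0.45 (0.048). Without the second WT library the adjusted p was 0.10 and 0.13, without either *Ezh1/2* dKO library 0.22 and 0.30 for *Ezh1/2* dKO, and without the second *Ezh2* Y726D library 0.14 for *Ezh2* Y726D. *Islr2*, *Gata4*, *Dmrt3* and *Vill* are among the neighbours with WT SUZ12 within 5 kb.

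*Defb42*, a defensin gene, had 2.67 and 1.93 normalized counts in WT and 18.96 and 27.5 in *Ezh1/2* dKO, without overlap (log2 fold change 2.86 ± 0.58, limma adjusted p = 0.040). It lost the call without either *Ezh1/2* dKO library (0.25 and 0.34). *Dmrt3*, a DM-domain transcription factor, had no read in WT, 8.36 and 8.71 normalized counts in *Ezh2* KO, 4.12 and 11.5 in *Ezh1/2* dKO and 7.13 and 3.36 in *Ezh2* Y726D. Each mutant library was thus above WT. Against a floor of 3 reads per library this is at least 2.27-fold higher (limma adjusted p = 0.063), and the call was lost without the first *Ezh1/2* dKO library (0.22) or either WT library (0.12 and 0.10). Without the second *Ezh1/2* dKO library or either *Ezh2* KO library, *Dmrt3* was under the filter on low counts and was not tested.

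Besides *Ezh1*, the neighbours that fell in *Ezh1/2* dKO were *Ina* and *Gli1*. *Gli1*, a target and transcription factor of Hedgehog signalling, had 104 and 101 normalized counts in WT, 61.7 and 51.3 in *Ezh2* KO, 41.2 and 27.5 in *Ezh1/2* dKO and 58.0 and 66.0 in *Ezh2* Y726D. The mutant libraries were all under WT, and the call was made in *Ezh1/2* dKO (log2 fold change -1.58 ± 0.32, limma adjusted p = 0.039). It was lost without either *Ezh1/2* dKO library (0.17 and 0.33). *Ina*, which codes for the neuronal filament protein internexin, had 141 and 105 normalized counts in WT, 47.1 and 8.71 in *Ezh2* KO, 20.6 and 17.8 in *Ezh1/2* dKO and 14.3 and 24.6 in *Ezh2* Y726D. All mutant libraries lay under both WT libraries. Its log2 fold change was -2.61 ± 0.67 in *Ezh1/2* dKO (limma adjusted p = 0.080) and -2.64 ± 0.67 in *Ezh2* Y726D (0.096). Without each of the 4 WT and *Ezh1/2* dKO libraries in turn the first call was lost (0.12 to 0.40). The second was lost without any of the 6 WT, *Ezh1/2* dKO and *Ezh2* Y726D libraries (0.15 to 0.24).

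In *Ezh2* Y726D, 2 of 292 neighbours were called higher (0.685%, with 1.66% of all genes) and 7 lower (2.40%, with 1.06% of all genes), again including *Ezh1*. The median log2 fold change was 0.04, and -0.01 for all genes. The 7 became 2 without the first WT or the second *Ezh2* Y726D library, 4 without the second WT library and 3 without either *Ezh1/2* dKO library. The 2 became 1 without the second WT, the second *Ezh2* Y726D or the first *Ezh1/2* dKO library, and 4 without the first *Ezh2* Y726D library.

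*Vill*, a relative of the actin-binding protein villin, had 78.7 and 87.6 normalized counts in WT, 128 and 91.0 in *Ezh2* KO, 223 and 158 in *Ezh1/2* dKO and 193 and 209 in *Ezh2* Y726D. It was above WT in every mutant library, and was called in *Ezh1/2* dKO (log2 fold change 1.17 ± 0.26, limma adjusted p = 0.054) and in *Ezh2* Y726D (1.27 ± 0.26, 0.050). The latter call was lost without the first WT (0.14), second *Ezh2* Y726D (0.17) or first *Ezh1/2* dKO library (0.10). *Gys1*, the glycogen synthase of muscle and other tissues, had 844 and 577 normalized counts in WT, 512 and 598 in *Ezh2* KO, 343 and 500 in *Ezh1/2* dKO, and 184 and 302 in *Ezh2* Y726D, where both libraries lay under all others. Its log2 fold change there was -1.56 ± 0.28 (limma adjusted p = 0.035, and 0.11 without the first WT library). *Pdzd7*, a scaffold gene of hair cells, had 28.01 and 29.8 normalized counts in WT, 48.1 and 117 in *Ezh2* KO, 49.5 and 91.5 in *Ezh1/2* dKO and 6.24 and 6.71 in *Ezh2* Y726D, the only line under WT (log2 fold change -2.001 ± 0.50, limma adjusted p = 0.091). The call was lost without any of the 6 WT, *Ezh1/2* dKO and *Ezh2* Y726D libraries (0.13 to 0.19).

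**Figure D5:**
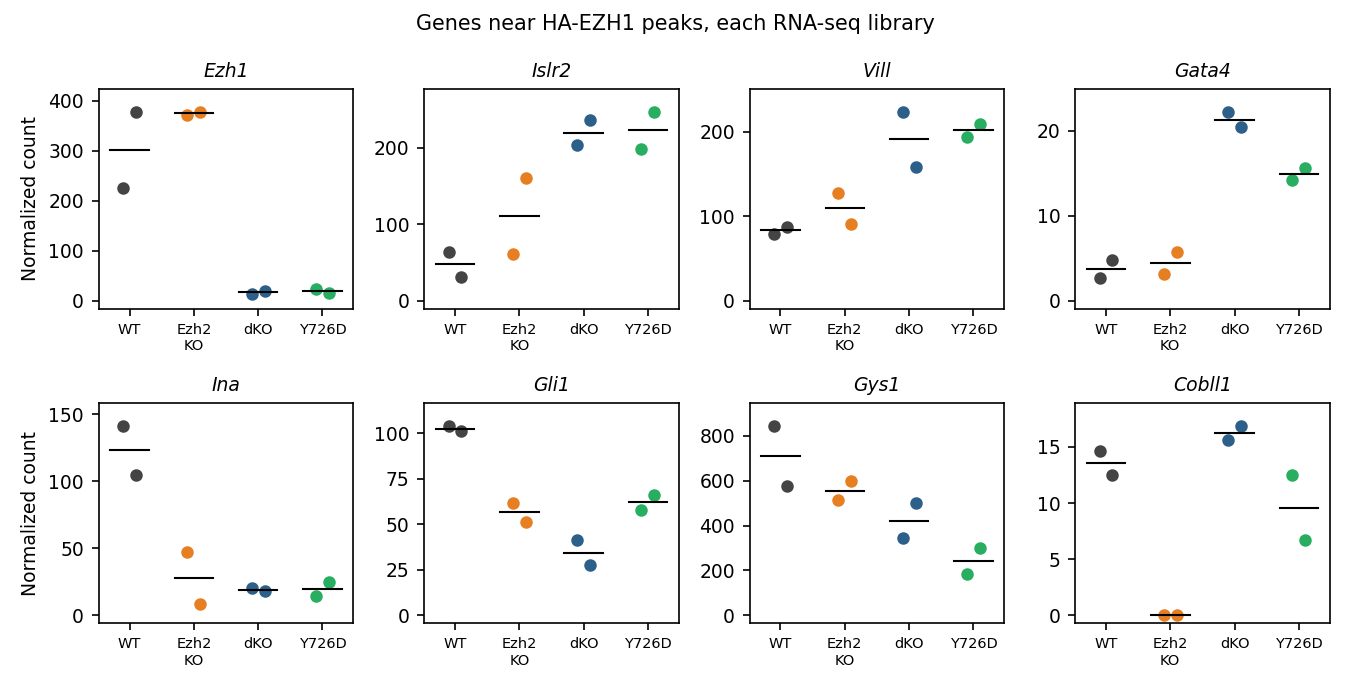
Normalized counts of 8 genes near the HA-EZH1 peaks in each RNA-seq library (points) with the mean of the 2 libraries of a line (lines), each gene on its own axis from 0. *Ezh1* is low in the 2 lines with the *Ezh1* deletion, *Islr2* and *Gata4* are higher in *Ezh1/2* dKO and *Ezh2* Y726D than in WT, and *Cobll1* has no read in *Ezh2* KO.

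Besides *Ezh1*, 6 genes had 2 of the peaks within 5 kb, of which the first 5 in alphabetical order are given. At *Tfap2c*, described above, levels overlapped between lines (199 and 122 normalized counts in WT, 120 and 233 in *Ezh1/2* dKO). *Rcor2*, a corepressor that partners with the demethylase LSD1, had peaks at chr19:7338599-7338885 and chr19:7343222-7343520 with H3K27ac in all 4 lines. It was expressed at 272 and 234 normalized counts in WT. *Fndc5*, the irisin precursor gene, had 1 peak with H3K27me3 in 3 lines and 441 bp from WT SUZ12 (chr4:128813637-128813925) and 1 with no mark (chr4:128812098-128812420), and too few counts for the test. *Agap3* (chr5:23987464-23987747 and chr5:23989236-23989474) and *Ap5b1* (chr19:5567441-5567776 and chr19:5568837-5569151) had no H3K27me3, with WT normalized counts of 113 and 77.99 for the former and 20.01 and 14.4 for the latter.

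Of the genes of the fixed lists with a position, 5 of 314 were neighbours (1.59%), as were 367 of all 17424 genes with a position (2.11%). Of 12 PRC2 subunit genes with a position, only *Ezh1* had one of the peaks, and of 23 PRC1 subunit genes only *Phc2* (chr4:128388708-128388916, in an intron, without marks). Of 39 developmental transcription factors, 2 did, and 38 had an HA-EZH1 peak on WT SUZ12 within 5 kb. These 2 were *Gata4* and *Pax3*, the latter with a peak 242 bp from WT SUZ12 (chr1:78191613-78192088) that carried H3K27me3 in 3 lines. None of 36 *Hox* genes had one, while 33 had an HA-EZH1 peak on WT SUZ12. Of 89 ribosomal protein genes, 1 was a neighbour (*Rpl13a*), and none was among 16 pluripotency factors, 15 germline genes, 59 replication-dependent histone genes, 12 acetyltransferases and H3K27 demethylases or 13 ETS, NRF1, YY1, MYC and SP factors.

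In *Ezh1/2* dKO the tested genes of these lists gave these counts, whether or not a peak was near. Of all genes tested, 3.63% were called higher and 0.389% lower. Of 20 *Hox* genes 11 were higher and 0 lower (median log2 fold change 3.24, against 0.01 for all genes), of 19 developmental factors 6 and 0 (1.63) and of 15 germline genes 5 and 0 (0.98). Of 23 PRC1 genes 3 and 0 were called (0.00), of 16 pluripotency factors 1 and 0 (-0.11) and of 12 PRC2 genes 0 and 2 (-0.16). The PRC2 genes called lower were *Ezh1* and *Ezh2*, which are deleted in this line. None was called among 88 ribosomal protein genes (-0.31), 46 histone genes (-0.05), 12 acetyltransferases and demethylases (-0.26) or 13 ETS, NRF1, YY1, MYC and SP factors (-0.18).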

How the data were processed

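The peak lists were deposited by the authors with a −log10 p per peak. For ChIP-seq these are MACS2 calls per library (broad regions for H3K27me1 and H3K27me2), after unique alignment to mm9 with Bowtie and removal of duplicates with Picard. The HA, WT SUZ12, H3K27me1 and H3K27me2 lists were used for positions only, with no cut on p made here. The RNA-seq table was deposited by the authors as a gene-level signal, namely read counts divided by a size factor per library, and 100% of its values were whole multiples of 1 read within 0.01 reads. These recovered reads were used in edgeR 4.0.16 (quasi-likelihood test, TMM) and DESeq2 1.42.0 as alternatives. The authors' tables of their own fold changes and p-values, and second copies of the RNA-seq tables, were not used here, and H2AK119ub, RING1B and H3K27ac of WT were not analysed here.

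Peaks of the H3K27me3, H3K27ac and mutant-line SUZ12 lists were kept at a −log10 p of at least 10. Lists were intersected (1 bp) in Python 3.11.15 with the GENCODE annotation of this build, and shares have Wilson 95% intervals. Symbols of 16570 genes matched directly, 854 through a synonym and 631 not at all, and the latter could not be neighbours. Expression was tested with limma 3.58.1 (R 4.3.3) on log2(normalized count + 1) for genes with a mean of at least 5, in all 8 libraries, two-sided, with Benjamini-Hochberg adjustment over all 13872 genes. Fold changes are on this scale, which understates those of low genes. In data simulated for *Ezh2* KO versus WT, 194 of 200 genes changed 4-fold were recovered among 13788, with 14 false calls. The changed genes were drawn only from genes with higher counts. Named genes with few counts, such as *Cobll1*, *Gata4*, *Dmrt3* and *Defb42*, lie below that level, so this recovery does not cover them.

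The peaks, gene lists and markers were chosen with earlier results of these data known. Named genes are, for each line, up to 4 called neighbours with the largest rise and up to 4 with the largest fall whose libraries lie beyond both WT libraries, the 10 highest in WT within 1 kb, those with the most peaks, and members of the fixed lists. Peaks named by position are those of these genes, the 5 widest and the 5 widest over 50 kb from a TSS. Same-numbered libraries deviated together with correlations of -0.41 to 0.29, so the numbers were not taken as pairs. Sequences were read from the mm9 genome.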

Additional observations from a re-analysis of the deposited data

How the results depend on the processing

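The number of peaks stayed within 1.5 times under its alternatives. The share near a TSS (51.7% within 5 kb) was 30.6% within 1 kb, 65.6% within 10 kb, 47.2% with protein-coding genes only and 45.3% over 5 kb from WT SUZ12. For peaks over 5 kb from WT SUZ12, H3K27me3 of any line was on 7.36% (17.3% of all) and SUZ12 of a mutant line on 1.47% (6.31% of all). Both H3K27me3 shares include 12 peaks in *Ezh1* that carried the mark in *Ezh2* R685C only. With a −log10 p of at least 20, the shares were 14.5% for H3K27me3, 1.92% for SUZ12 and 11.5% for H3K27ac (21.7% of all at 10), and with 50% of a peak's bases covered, H3K27ac was on 17.8%. The WT ATAC share of 57.9% was 24.1% with the strongest 5% of regions and 90.7% with the list as deposited.

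Neighbours called higher in *Ezh2* KO (0) were 1 by DESeq2 and 0 to 1 on leaving out 1 library. Those called lower (1) were 3 by DESeq2, 0 by edgeR, with a mean of at least 20, with only the 2 lines compared and with a pseudocount of 5, and 0 to 3 without 1 library. In *Ezh1/2* dKO, the 7 higher were 3 with a mean of at least 20, with quantile normalization and without genes near WT SUZ12, 12 with only 2 lines, 2 within 1 kb and 0 to 15 without 1 library. The 3 lower were 6 with quantile normalization and 1 to 4 without 1 library. In *Ezh2* Y726D, the 2 higher were 4 by DESeq2, 0 with only 2 lines and without genes near WT SUZ12, 1 within 1 kb, 5 within 10 kb and 1 to 4 without 1 library. The 7 lower were 1 with only 2 lines and 2 to 9 without 1 library. The cause of these shifts was not tested. With a replicate block, higher and lower calls were 0 and 1 in *Ezh2* KO, 8 and 3 in *Ezh1/2* dKO and 2 and 6 in *Ezh2* Y726D, and of the named calls only that of *Ina* in *Ezh2* Y726D was lost (limma adjusted p = 0.12). None of the named calls changed direction where they could be tested, while the neighbours' median log2 fold change in *Ezh2* KO, close to 0, took either sign (-0.02 to 0.03). With 2 libraries a line, and 1 list per line and target, differences between lists may be those of depth or antibody, which cannot be told apart from the lines.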
